A study of Mus musculus with 8 samples.

Results

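The 10 genes examined here regulate mitochondrial biogenesis and were measured in splenic type 1 conventional dendritic cells (cDC1), the dendritic cells best known for cross-presenting antigen to CD8 T cells. They were chosen by name: the nuclear transcription factors Nrf1, Gabpa, Gabpb1 and Esrra, the coactivators Pprc1 and Ppargc1b, and the mitochondrial transcription machinery Tfam, Tfb1m, Tfb2m and Polrmt. Of these 10 genes, 9 had a probe set under their symbol in the platform annotation, 1 each, among 22206 probe sets tested. No probe set was named Esrra, and that gene was not analysed here. The cells came from naive wild-type C57BL/6 mice and were sorted by TMRM/MG signal. TMRM is a dye that accumulates in mitochondria according to their membrane potential, and the labels do not spell out MG. Each fraction, TMRM/MG-high and TMRM/MG-low, was hybridised to 4 arrays, with no treatment in either, and cDC2 fractions named in the protocol were not analysed here. Nothing in the labels says whether arrays of one fraction came from separate mice, and the p-values below therefore reflect differences among arrays that can be technical.

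Most proteins of the mitochondrion are encoded in the nucleus, and a small set is encoded in the mitochondrial genome. Nuclear respiratory factor 1 (Nrf1) and GA-binding protein (Gabpa, which binds DNA, and Gabpb1, which activates transcription) act on the promoters of respiratory chain genes and of the genes for the mitochondrial transcription machinery. Coactivators of the PGC-1 family (Ppargc1a, Ppargc1b and Pprc1) bind these factors. Inside the organelle, the RNA polymerase Polrmt works with Tfam, which bends and packages mitochondrial DNA, and with Tfb2m, which opens the promoter. Tfb1m, related to Tfb2m in sequence, methylates the RNA of the small mitochondrial ribosomal subunit.

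The values are log2 signals after RMA, a procedure that corrects background, brings all arrays to one distribution and summarises the probes of a probe set. A shift shared by most transcripts is therefore removed, and every difference is relative to the other probe sets. Fewer cells of a type and less RNA per cell cannot be told apart in such bulk samples. Arrays correlated across probe sets at r = 0.992 to 0.994 among the high, 0.990 to 0.992 among the low and 0.982 to 0.992 between fractions. Of 13 cDC1 markers, none differed between the fractions by limma at an adjusted p under 0.05. None lay at or below the median of the negative control probe sets. Both also held for 8 B cell markers, so these values do not test the identity of the cells. The median difference of the 13 cDC1 markers was -0.14. The groups did not overlap for 5 of the 13, as was the case for 16.1% of all probe sets. Cd8a (0.31) and Xcr1 (0.14) had all high arrays above, and Clec9a (-0.21), Wdfy4 (-0.16) and Itgax (-0.14) had all high arrays below. Markers of other cells did move with the sort by the same limma test, which called 5.28% of all probe sets higher and 2.96% lower. Of 13 plasmacytoid dendritic cell markers 11 were higher (mean level 9.95 to 10.38 in high and 9.23 to 9.41 in low arrays). Of 13 T and NK cell markers 4 were lower and 1 was higher (8.74 to 9.34 in high and 9.06 to 9.87 in low arrays). Among 14 monocyte, macrophage and neutrophil markers (9.38 to 9.88 in high and 9.56 to 10.21 in low arrays, median difference -0.27), Csf3r was lower (-0.81, limma adjusted p = 0.00065) and Ly6c1 higher (0.72, adjusted p = 0.00791). The other 12 did not pass, among them S100a9 (-0.68, limma adjusted p = 0.0514), S100a8 (-0.84) and Ngp (-0.99). Of the 14 differences, 6 were positive. Of 11 cDC2 markers (9.0 to 9.56 in high and 9.03 to 9.41 in low arrays) Notch2 was lower (-0.33, adjusted p = 0.0287), and none of 8 B cell or 6 erythroid and platelet markers was called. Of all these markers the cDC2 marker Mgl2 alone lay at or below the negative control median, and their part in the results below was not tested. Poly-A spike-in RNAs, added to each sample before labelling, were also lower in the high arrays, with a mean of 6.32 ± 0.44 against 7.55 ± 0.28 in low arrays (SD, n = 4 each). The hybridisation controls were lower too, each without overlap of the groups, with differences of -0.97 for bioB, -0.71 for bioC, -0.56 for bioD and -0.33 for cre.

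The regulators that passed the test went in both directions. Tfb1m and Gabpa were higher and Pprc1 and Nrf1 were lower in TMRM/MG-high cDC1, and the other 5 (Gabpb1, Ppargc1b, Tfam, Tfb2m and Polrmt) did not pass the test (limma, Benjamini-Hochberg adjustment over all probe sets, threshold 0.05). Over all 22206 probe sets, 5.28% were called higher and 2.96% lower, together 8.25%. The same 4 regulators had no overlap between the 4 high and the 4 low arrays, which held for 16.1% of all probe sets (9.7% with the high arrays above and 6.37% with them below). All 4 machinery genes had positive differences, while the 5 nuclear factors and coactivators were split.

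**Figure D1:**
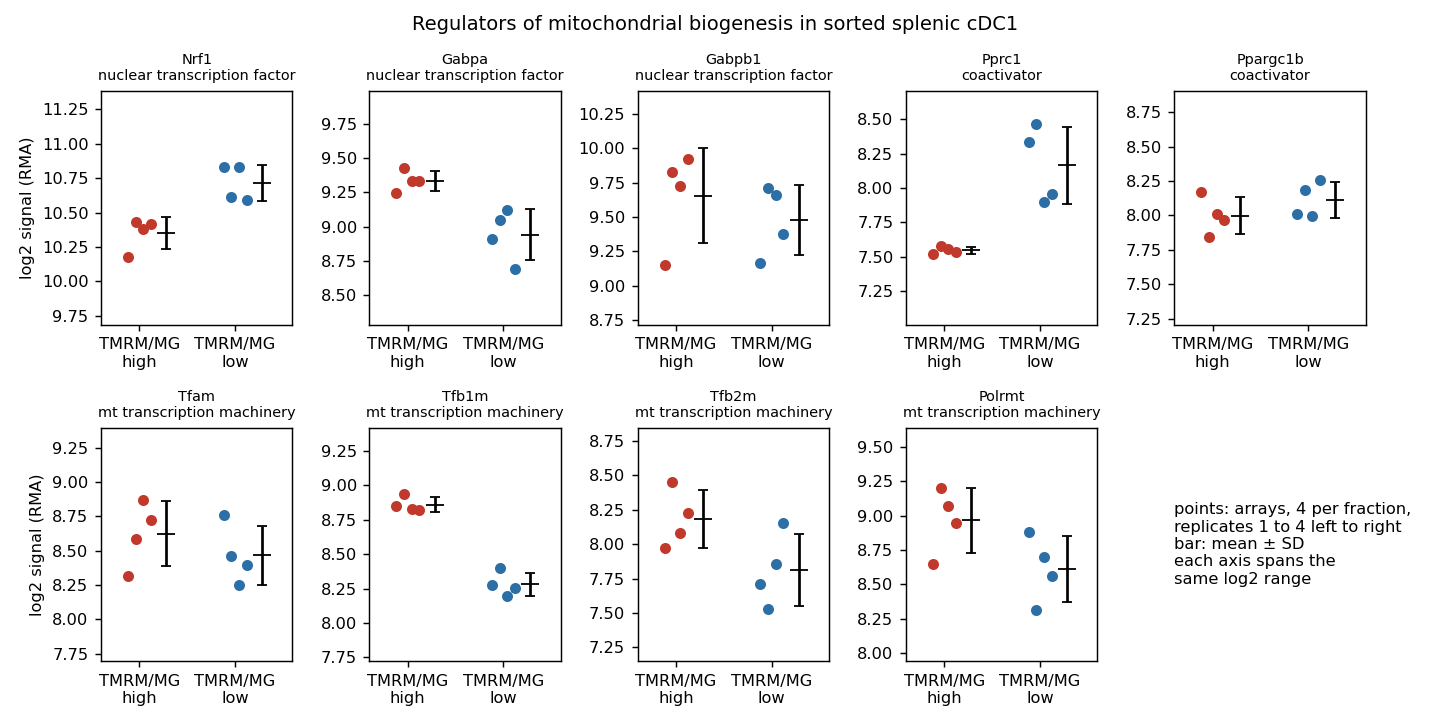
Log2 signal (vertical axis) of the 9 measured regulators on each array, with TMRM/MG-high left of TMRM/MG-low. Points are arrays, bars are mean ± SD (n = 4), and every axis spans the same log2 range. The high arrays of Tfb1m and Gabpa all lie above the low arrays, and those of Nrf1 and Pprc1 all lie below them.

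The promoters of the machinery genes are shown because Nrf1, which was lower, and GA-binding protein, whose Gabpa subunit was higher, are described as regulators of them, and the promoter of Gabpa is shown as that of the nuclear factor that was higher. Each window runs from 250 bases before to 50 bases after the gene's start in RefSeq (GRCm38.p6), 5′ to 3′ on the gene's strand. Capitals mark matches, on either strand, to the core of the Nrf1 site (GCANGCG) or the ETS-family element that Gabpa binds (CGGAAG). Matches may overlap, and the letters were settled after the windows had been seen, so the matches are a description.
Tfb1m, chr17:3557706-3558005, minus strand: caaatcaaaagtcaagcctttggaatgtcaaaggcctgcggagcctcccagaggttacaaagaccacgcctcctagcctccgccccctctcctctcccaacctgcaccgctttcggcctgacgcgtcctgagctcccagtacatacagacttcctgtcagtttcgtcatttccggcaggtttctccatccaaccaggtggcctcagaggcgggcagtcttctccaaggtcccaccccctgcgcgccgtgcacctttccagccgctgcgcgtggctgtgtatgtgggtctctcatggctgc
Tfb2m, chr1:179546227-179546526, minus strand: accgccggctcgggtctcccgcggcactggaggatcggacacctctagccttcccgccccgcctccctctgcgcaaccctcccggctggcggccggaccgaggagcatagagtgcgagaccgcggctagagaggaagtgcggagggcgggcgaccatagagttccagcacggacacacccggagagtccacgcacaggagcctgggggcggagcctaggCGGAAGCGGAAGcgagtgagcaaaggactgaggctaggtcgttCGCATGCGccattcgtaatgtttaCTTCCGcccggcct
Tfam, chr10:71237995-71238294, minus strand: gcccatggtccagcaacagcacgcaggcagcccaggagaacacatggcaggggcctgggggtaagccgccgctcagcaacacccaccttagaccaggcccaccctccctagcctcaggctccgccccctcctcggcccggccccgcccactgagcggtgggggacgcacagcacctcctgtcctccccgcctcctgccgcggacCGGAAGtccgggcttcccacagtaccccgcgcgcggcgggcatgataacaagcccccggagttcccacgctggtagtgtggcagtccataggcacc
Polrmt, chr10:79746532-79746831, minus strand: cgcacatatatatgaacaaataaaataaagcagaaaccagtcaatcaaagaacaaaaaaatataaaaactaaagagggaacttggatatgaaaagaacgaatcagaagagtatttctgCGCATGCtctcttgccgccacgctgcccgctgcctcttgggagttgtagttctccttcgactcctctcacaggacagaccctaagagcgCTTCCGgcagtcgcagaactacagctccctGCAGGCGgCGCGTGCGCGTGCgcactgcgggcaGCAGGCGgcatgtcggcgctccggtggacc
Gabpa, chr16:84834874-84835173, plus strand: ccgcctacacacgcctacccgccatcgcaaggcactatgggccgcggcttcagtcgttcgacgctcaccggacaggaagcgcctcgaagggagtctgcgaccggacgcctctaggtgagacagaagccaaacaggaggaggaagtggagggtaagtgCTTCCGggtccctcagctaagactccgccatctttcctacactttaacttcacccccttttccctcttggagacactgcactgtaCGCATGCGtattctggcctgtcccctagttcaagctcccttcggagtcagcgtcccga

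The window of Tfb1m, the machinery gene with the largest difference, held no exact match to either motif. Variant forms of the motifs were not searched for in any window. Tfb2m held 3 ETS elements and an Nrf1 core read on both strands. Polrmt held 1 ETS element and 5 matches to the Nrf1 core. Tfam held 1 ETS element alone, and Gabpa held 1 ETS element and an Nrf1 core read on both strands. Of the 10 windows of the 8 regulators matched, 5 held the Nrf1 core and 4 the ETS element, against 16.6% and 16.9% of 32851 RefSeq windows of the same length. Those windows were not matched for base composition, and the 10 held 46.3% to 77% G and C. The 2 windows of Gabpb1 overlap in part, and enrichment was not tested. The element of estrogen-related receptors (AAGGTCA) was in none of the 10 and in 4.72% of all windows. The windows not printed were those of Nrf1 and Gabpb1, with 2 starts each, and of Pprc1, and none of these held an ETS element.

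Among the nuclear transcription factors, Nrf1 was lower in the high fraction. Its log2 signal was 10.18, 10.43, 10.38 and 10.42 in the high arrays, against 10.83, 10.61, 10.83 and 10.59 in the low arrays. The highest high array lay below the lowest low array. The difference was -0.36 (SE 0.095, 95% interval -0.57 to -0.16, limma adjusted p = 0.0381), a signal 1.29-fold lower. The call was lost on leaving out any one of the 8 arrays, with adjusted p = 0.0523 to 0.099 and differences of -0.41 to -0.31.

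Gabpa, the DNA-binding subunit of GA-binding protein, was higher. It had 9.24, 9.42, 9.33 and 9.33 in the high arrays, against 8.91, 9.05, 9.12 and 8.69 in the low arrays, with no overlap. The difference was 0.39 (SE 0.10, 95% interval 0.17 to 0.61, limma adjusted p = 0.0374), or 1.31-fold. This call remained without high replicate 1 (0.42, adjusted p = 0.0413) or low replicate 3 (0.45, adjusted p = 0.0209) and was lost without any one of the other 6 arrays (differences 0.31 to 0.43, adjusted p = 0.0588 to 0.111). It was also lost when arrays were centred on their medians (0.38, adjusted p = 0.0514).

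Gabpb1, the activating partner subunit of Gabpa, varied more within the fractions than between them. It had 9.15, 9.82, 9.72 and 9.92 in high arrays and 9.17, 9.71, 9.66 and 9.38 in low arrays. High replicate 1 was the lowest of all 8, while the other 3 high arrays were above every low array. The difference of 0.18 (SE 0.17, 95% interval -0.19 to 0.54, limma adjusted p = 0.554) did not pass. The difference between the 2 subunits, Gabpa minus Gabpb1, was 0.21 (SE 0.17, exact permutation p = 0.314), so the subunits were not distinguished from each other.

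Of the coactivators, Pprc1 had the largest difference of the 9 regulators by size. Its signal was 7.52, 7.58, 7.55 and 7.53 in the high arrays, against 8.34, 8.47, 7.90 and 7.95 in the low arrays. The high arrays agreed within 0.024 (SD), whereas the low arrays formed an upper and a lower pair (SD 0.28). The difference was -0.62 (SE 0.12, 95% interval -0.89 to -0.35, limma adjusted p = 0.0154), a signal 1.54-fold lower, and 1.41% of tested probe sets differed by more in either direction. The call remained on leaving out each array in turn, with differences of -0.71 to -0.52 and adjusted p up to 0.0486. Pprc1 was dim: its mean exceeded 63.9% of the 5222 negative (intron) controls in high arrays and 77% in low arrays, so the size of its difference is uncertain.

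Ppargc1b, the other coactivator, had 8.17, 7.84, 8.01 and 7.97 in high arrays and 8.01, 8.19, 7.99 and 8.26 in low arrays, with overlapping groups. Its difference was -0.11 (SE 0.097, 95% interval -0.33 to 0.098, limma adjusted p = 0.505). Pprc1 minus Ppargc1b differed by -0.50 between the fractions (SE 0.17, exact permutation p = 0.0571), with the groups overlapping at low replicate 4. Ppargc1a, the founding member of this coactivator family, averaged 7.77 ± 0.21 in high and 7.50 ± 0.32 in low arrays (SD, n = 4 each), a difference of 0.26 (limma adjusted p = 0.317), and its means exceeded 68.2% and 65.5% of the negative controls.

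In the mitochondrial transcription machinery, Tfb1m was the member that passed the test. Its signal was 8.85, 8.94, 8.83 and 8.83 in the high arrays, against 8.28, 8.40, 8.20 and 8.25 in the low arrays. The lowest high array stood above the highest low array by more than the range within either fraction. The difference was 0.58 (SE 0.080, 95% interval 0.41 to 0.75, limma adjusted p = 0.0035), or 1.49-fold, and 1.89% of tested probe sets differed by more. The call remained without each array in turn (0.55 to 0.62, adjusted p at most 0.0166).

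Tfb2m, which opens mitochondrial promoters, had 7.97, 8.46, 8.08 and 8.22 in high arrays and 7.71, 7.53, 7.86 and 8.15 in low arrays. Low replicate 4 lay within the range of the high arrays. The difference of 0.37 (SE 0.14, 95% interval 0.069 to 0.67, limma adjusted p = 0.12) did not pass. Polrmt had 8.65, 9.20, 9.07 and 8.94 in high arrays and 8.88, 8.31, 8.70 and 8.56 in low arrays. High replicate 1 was the exception among the high arrays, below 2 of the low ones. Its difference of 0.35 (SE 0.14, 95% interval 0.051 to 0.66, limma adjusted p = 0.137) did not pass.

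Tfam, the DNA-packaging factor, did not separate the fractions. Its signal was 8.31, 8.59, 8.87 and 8.72 in high arrays, and 8.76, 8.46, 8.25 and 8.39 in low arrays. The difference was 0.16 (SE 0.13, 95% interval -0.13 to 0.45, limma adjusted p = 0.506), an interval that allows a rise as large as that of Gabpa. Tfb1m minus Tfam differed by 0.42 between the fractions (SE 0.16) with no overlap of the groups, and Tfb1m minus Tfb2m by 0.21 (SE 0.19) with overlap. The exact permutation p was 0.0286 for the first of these pairs, the smallest that 4 against 4 arrays allow, and 0.286 for the second. Gabpa minus Nrf1 differed by 0.75 (SE 0.091, no overlap, exact permutation p = 0.0286). After adjustment over the 5 pairs compared, which were picked with earlier results known, both pairs without overlap had exact p = 0.0714 and no pair passed 0.05.

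**Figure D2:**
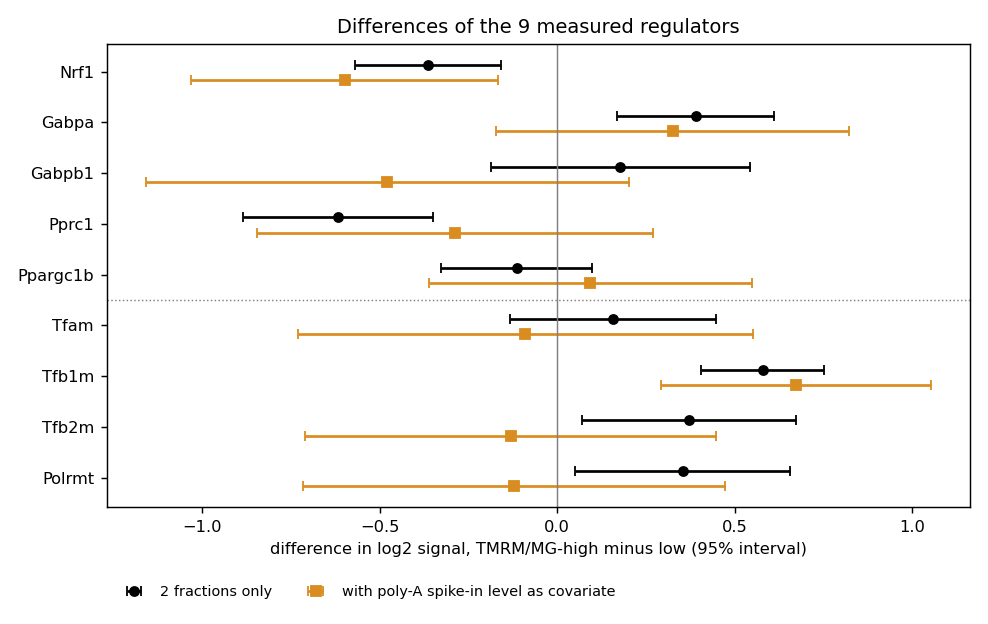
Difference in log2 signal between TMRM/MG-high and TMRM/MG-low arrays (horizontal axis, high minus low) with its 95% interval, for the comparison of the fractions alone (black circles) and with the mean poly-A spike-in level as a covariate (orange squares). Nrf1 and Tfb1m have intervals that exclude 0 in both, while Tfam, Tfb2m, Polrmt, Gabpb1 and Ppargc1b change sign. The intervals are not adjusted for the number of probe sets. With the covariate neither gene was called (limma adjusted p = 0.91 for Nrf1 and 0.739 for Tfb1m).

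The spike-in level differed between the fractions, so each regulator is also given with that level as a covariate. Limma then called none of the 9 regulators and 0 of all probe sets in either direction (504 and 628 probe sets higher and lower at an unadjusted p under 0.05). Tfb1m kept its size (0.67, 95% interval 0.29 to 1.05, limma adjusted p = 0.739) and Nrf1 was further below 0 (-0.60, 95% interval -1.03 to -0.17, adjusted p = 0.91). Gabpa stood at 0.33 (95% interval -0.17 to 0.82) and Pprc1 at -0.29 (-0.84 to 0.27). The other machinery genes turned to -0.089 for Tfam, -0.13 for Tfb2m and -0.12 for Polrmt, each with an interval that includes 0. Every interval was wider than without the covariate, which itself moved with the fraction.

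The machinery genes were then set against the nuclear factors and coactivators, after centring each gene on its mean over the 8 arrays. The mean of the 4 machinery genes was 0.18 ± 0.15 in high and -0.18 ± 0.10 in low arrays (SD, n = 4 each). The mean of the 5 nuclear genes was -0.053 ± 0.084 in high and 0.053 ± 0.097 in low arrays. The machinery mean minus the nuclear mean was 0.15 to 0.33 in the high arrays and -0.47 to -0.082 in the low arrays, a contrast of 0.47 without overlap. Centring sets the zero of this scale, so the contrast between the fractions is the measurement, and the sign within a fraction is not. No test is given, since the genes were chosen with results known. Without Tfb1m the machinery mean differed by 0.29, and without Pprc1 the nuclear mean differed by 0.022. The median difference was 0.36 for the machinery and -0.11 for the nuclear class, beside 0.0093 over all probe sets.

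**Figure D3:**
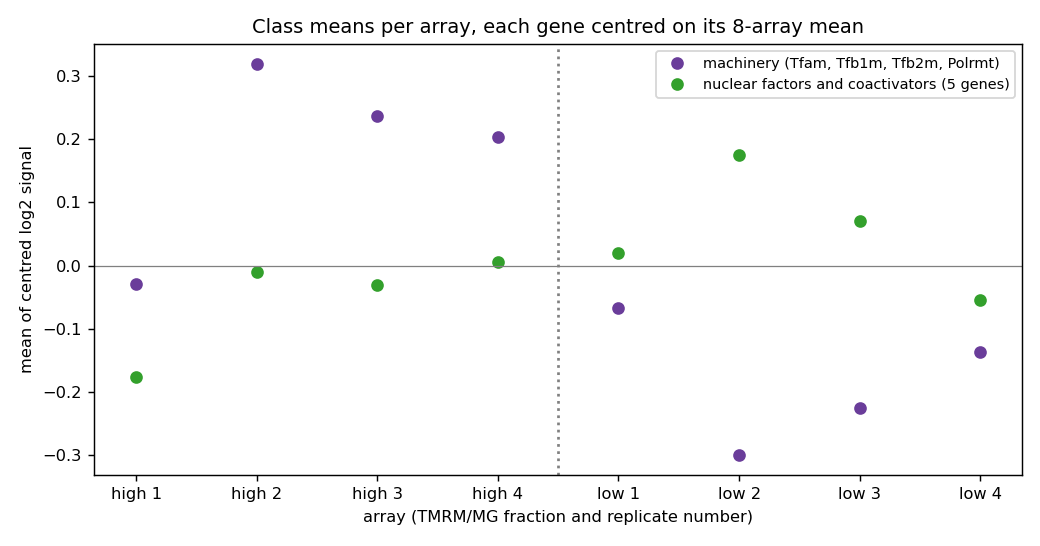
Mean of the centred log2 signals (vertical axis) of the 4 machinery genes (purple) and the 5 nuclear factors and coactivators (green) on each array, high arrays on the left. Centring sets the zero, and purple minus green is larger on every high array than on any low array. High replicate 1 has the lowest machinery mean of the high fraction, at -0.030.

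Genes around the regulators were counted from lists chosen with earlier results known. None of 16 measured partners and paralogs of the nuclear factors was called, with a median difference of -0.017. Atf1, a transcription factor of the CREB family, differed by 0.34 (SE 0.10, limma adjusted p = 0.0585), and Yy1, another transcription factor of respiratory chain genes, by 0.15 (SE 0.077, adjusted p = 0.251). Nfe2l1 and Nfe2l2, unrelated stress-response factors whose protein names resemble those of the respiratory factors, differed by 0.13 and 0.050 (adjusted p = 0.377 and 0.83). Of 16 corepressors and upstream regulators 1 was called, the growth regulator Myc, which was lower. That share is below the 8.25% of all probe sets called in either direction and above the 2.96% called lower. Myc had 10.22, 10.20, 10.02 and 10.51 in high arrays, against 10.63, 10.55, 10.59 and 10.65 in low arrays. Its difference was -0.37 (SE 0.10, limma adjusted p = 0.0481), and this call remained without high replicate 4 alone (-0.46, adjusted p = 0.0304); without any other one array the adjusted p was 0.0608 to 0.138, and with median centring 0.0509.

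Nuclear genes described as targets of Nrf1 or GA-binding protein, a list that includes Tfam, Tfb1m and Tfb2m, had positive differences in 28 of 31 cases, where 52.1% of all probe sets did. Of the 31, 6 passed the test, all higher and Tfb1m among them, where 5.28% of all probe sets were called higher. The median difference was 0.21. Beside Tfb1m these included Tomm70a, a receptor for protein import (0.50, SE 0.096, limma adjusted p = 0.0138), and the complex III subunits Uqcrfs1 (0.48, SE 0.11) and Uqcrb (0.40, SE 0.098). The level of these 31 genes averaged 11.2 to 11.34 in high and 11 to 11.14 in low arrays. Positive (exon) control probe sets were also higher in the high arrays, with medians of 10.38 to 10.49 against 10.21 to 10.37, a difference of 0.16. Whether the 31 genes differ from other probe sets of like level was not tested. With the spike-in covariate Tomm70a stood at 0.16, Uqcrfs1 at 0.16 and Uqcrb at 0.064, none called. Tomm70a lost its call without high replicate 2 (adjusted p = 0.0507) or high replicate 3 (0.0505), Uqcrfs1 without any array other than high replicate 1, high replicate 4 or low replicate 3 (up to 0.0738), and Uqcrb without any other than high replicate 1 or low replicate 3 (up to 0.0911).

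**Figure D4:**
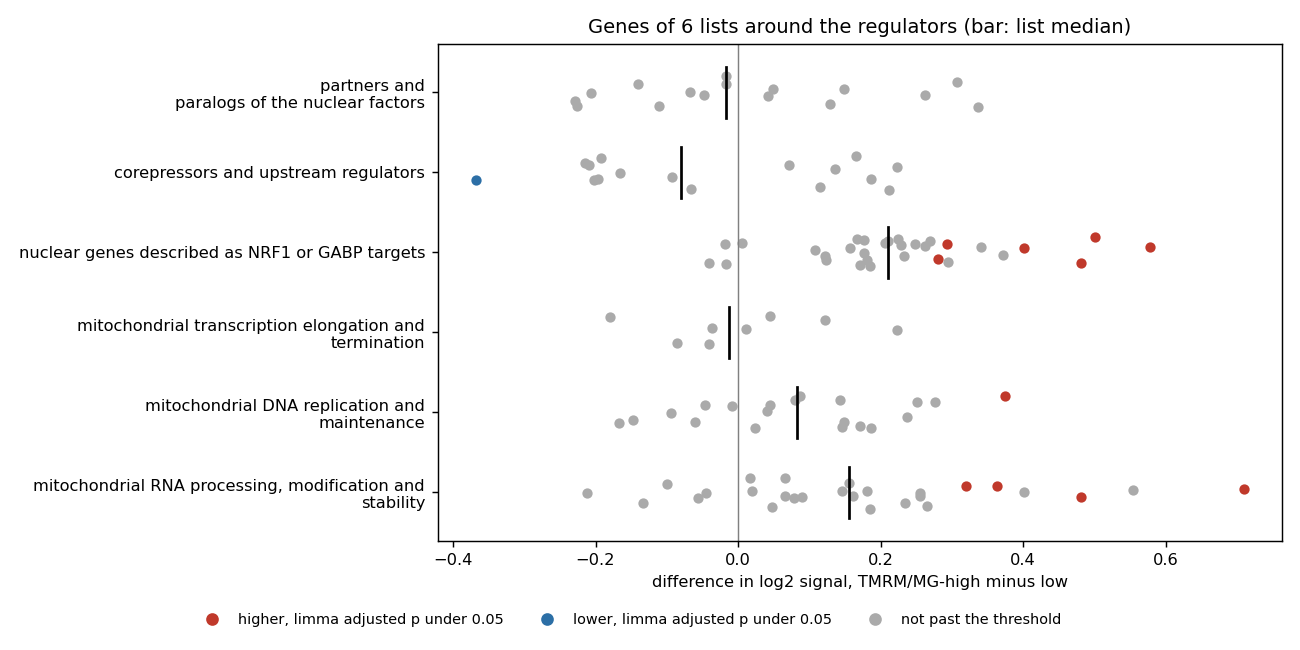
Difference in log2 signal (horizontal axis, high minus low) of each measured gene in 6 lists around the regulators, with the list median as a black bar. Red and blue points passed limma at an adjusted p under 0.05. The target list has its median at 0.21 and the elongation and termination list at -0.013.

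Genes that act beside the machinery inside the organelle were counted next. None of 8 elongation and termination genes was called (median -0.013), with the elongation factor Tefm at 0.011 (SE 0.12) and the termination factor family member Mterf4 at 0.22 (SE 0.10, adjusted p = 0.204). Of 20 genes for mitochondrial DNA replication and maintenance 1 was higher, Ssbp1, the single-stranded DNA-binding protein (0.37, SE 0.11, limma adjusted p = 0.0489), and its groups overlapped. That is about the share of all probe sets called higher, 5.28%. The Ssbp1 call was lost after quantile normalization of the tested probe sets (0.29, adjusted p = 0.0717) and without any array other than high replicate 1 or low replicate 3 (0.32 to 0.39, adjusted p = 0.0898 to 0.135). Polg, the DNA polymerase, differed by -0.17 (SE 0.10) and the helicase Twnk by 0.045 (SE 0.16).

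Of 27 measured genes for processing, modifying and stabilising mitochondrial RNA, 4 were higher and none lower, where 5.28% of all probe sets were called higher. The median difference of the 27 was 0.16, and the median of the positive (exon) controls also differed by 0.16. Prorp, Trmt10c and Hsd17b10 encode the 3 subunits of mitochondrial RNase P, which cuts the 5′ ends of transfer RNAs out of the long transcripts that Polrmt makes, and all 3 were among the 4. Prorp, the nuclease subunit, had 8.31, 8.36, 8.24 and 8.36 in high arrays, against 7.24, 7.14, 8.0 and 8.04 in low arrays. The low arrays formed an upper and a lower pair, both below every high array. The difference was 0.71 (SE 0.19, limma adjusted p = 0.0383), and its size is uncertain because the low mean exceeded 66.9% of the negative controls.

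Trmt10c, the methyltransferase subunit, had 9.09, 9.19, 9.32 and 9.11 in high arrays, against 8.73, 8.87, 8.94 and 8.90 in low arrays (difference 0.32, SE 0.086, limma adjusted p = 0.0429). Hsd17b10, the dehydrogenase subunit, had 11.59, 11.83, 11.77 and 11.69 in high arrays, against 11.20, 11.32, 11.54 and 11.36 in low arrays (0.36, SE 0.095, adjusted p = 0.039). In neither gene did the groups overlap. The fourth called gene, Fastkd2, an RNA-binding protein of mitochondrial ribosome assembly, differed by 0.48 (SE 0.11, adjusted p = 0.0234), a call lost without high replicates 2, 3 or 4 or low replicate 1 (adjusted p = 0.0521 to 0.0748). Elac2, which cuts the other end of the transfer RNAs and is named here after its values were seen, averaged 11.05 ± 0.080 in high and 11.03 ± 0.068 in low arrays (SD, n = 4 each; difference 0.017, adjusted p = 0.921), and the RNA stability factor Lrpprc differed by 0.079 (SE 0.12).

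The 3 calls for RNase P sat close to the threshold. Prorp was called without low replicate 3 or low replicate 4 only (adjusted p up to 0.103 otherwise), and Trmt10c and Hsd17b10 without high replicate 1 or low replicate 3 only (adjusted p up to 0.131 and 0.119 otherwise). With quantile normalization Trmt10c (0.28, adjusted p = 0.0593) and Hsd17b10 (0.28, adjusted p = 0.0585) missed the threshold, as they did with median centring (adjusted p = 0.0558 and 0.0508). When the spike-in level was a covariate they stood at 0.11 for Prorp, 0.099 for Trmt10c and 0.050 for Hsd17b10, none called.

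**Figure D5:**
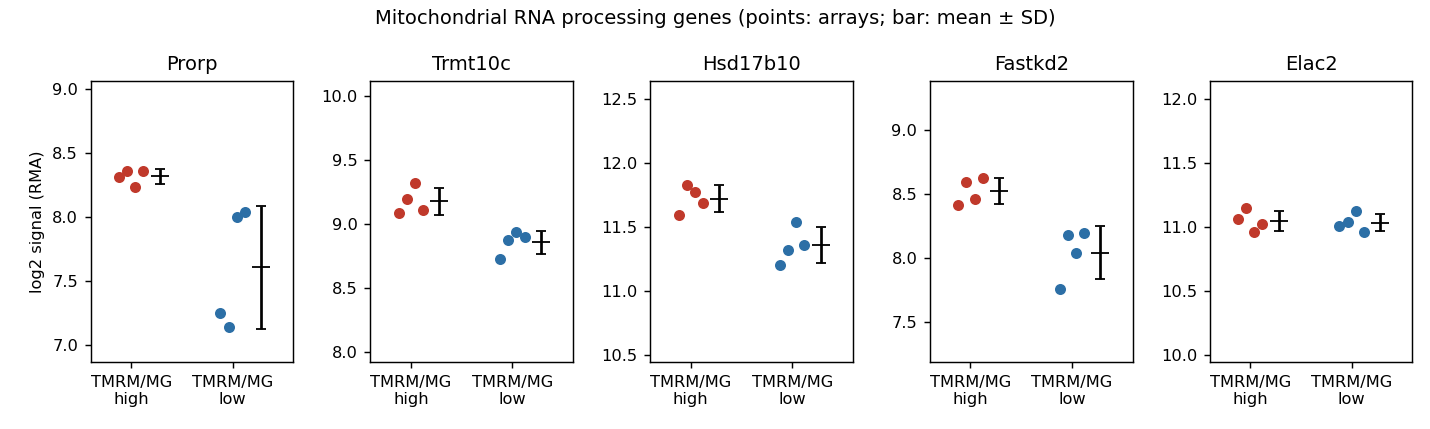
Log2 signal (vertical axis) of Prorp, Trmt10c, Hsd17b10, Fastkd2 and Elac2 on each array, TMRM/MG-high left of TMRM/MG-low, with the mean ± SD as a bar (n = 4). The high arrays of the first 4 genes lie above all low arrays, while those of Elac2 overlap them.

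The genes most like the called regulators in pattern were found from the root mean square difference between centred log2 profiles over the 8 arrays, among named genes outside the 10. Nearest to Tfb1m were Txndc5 (0.073), Tmem41b (0.080) and Coq10b (0.082), and nearest to Gabpa were Mtmr1 (0.042), Gtf2f2 (0.048) and Churc1 (0.051). Nearest to Nrf1 were Adgra2 (0.045), Zfp90 (0.055) and Tbc1d9b (0.057), and nearest to Pprc1 were Ankzf1 (0.060), Cyb5r1 (0.071) and Fcho1 (0.089). These distances are descriptions of 8 arrays that share one sort.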

How the data were processed

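Transcript levels were measured on 8 Affymetrix whole-transcript arrays, 4 per sorted fraction. The deposited log2 values were made by the authors with RMA in Affymetrix Expression Console 1.1, per the submitters' processing notes, and per the labels' protocols the Whole Transcript Plus kit gave the biotin-labelled target. No genome build was stated for these values, and precision is limited by the number of arrays. Of 28846 rows, 6640 control probe sets were left out and 22206 were tested, and 2634 of these were unnamed. The high fraction was compared with the low fraction in limma 3.58.1 (R 4.3.3; lmFit, eBayes, two-sided, no block, threshold 0.05 after Benjamini-Hochberg adjustment over all tested probe sets). Pairs of genes were compared with an exact permutation test, two-sided. The procedure was tested on simulated data. Figures were drawn with matplotlib 3.10.9.

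The genes, lists, pairs and alternatives were chosen with earlier results of these data known. Named by rule outside the 10 genes were up to 4 called genes with the smallest p of each list (up to 2 where none was called), a few fixed genes such as Ppargc1a, Yy1, Polg and Lrpprc, and the 3 genes nearest in pattern to each called regulator. Wdfy4, Itgax, S100a8, S100a9, Ngp, Mgl2 and Elac2 were named outside this rule, with their values known. Alternatives were quantile normalization, median centring, a filter on dim probe sets, array weights, a robust fit with an intensity trend, the replicate number as a block, the mean poly-A spike-in level as a covariate, an unmoderated test with unequal variances, other thresholds, and leaving out each array. Promoter windows from RefSeq (GRCm38.p6) were searched for 8 of the 9 measured genes. Ppargc1b was left out by choice, and the windows of its chromosome were left out of the RefSeq windows used for comparison.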

Additional observations from a re-analysis of the deposited data

How the results depend on the processing

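The count of called probe sets (1173 higher and 658 lower) moved to 1950 higher with an intensity trend and robust fit together, to 2061 and 1174 at an adjusted p of 0.1, to 73 and 113 at 0.01, to 11 and 30 with the unmoderated test (2785 and 1787 at an unadjusted p under 0.05), and to 0 and 0 with the spike-in covariate. With dim probe sets left out it was 1727 higher and 800 lower. Without 1 array it ranged over 183 to 1680 higher and 218 to 793 lower. A smaller group also has less power.

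At a threshold of 0.01 Tfb1m alone of the 9 regulators passed, and Nrf1 (-0.36), Gabpa (0.39) and Pprc1 (-0.62) did not. With the unmoderated test the same 3 were not called (adjusted p = 0.123, 0.166 and 0.173). It also called none of Myc, Ssbp1, Fastkd2, Prorp, Hsd17b10, Trmt10c, Tomm70a, Uqcrfs1 and Uqcrb (adjusted p = 0.0872 to 0.261). Without 1 array, Nrf1 ranged over -0.41 to -0.31 and Gabpa over 0.31 to 0.45. Median centring gave Gabpa 0.38 (adjusted p = 0.0514). Under the filter on dim probe sets, Pprc1, Ppargc1b and Tfb2m, whose means lay below the 75th percentile of the negative controls (8.09), were not tested.

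With the spike-in covariate the values were Tfb1m 0.67, Nrf1 -0.60, Gabpa 0.33 and Pprc1 -0.29, none called; Gabpb1 -0.48, Ppargc1b 0.093, Tfam -0.089, Tfb2m -0.13 and Polrmt -0.12 reversed, as did Ssbp1 (-0.036), Sp1 (0.087), Polg (0.019), Twnk (-0.12), Tefm (-0.23), Lrpprc (-0.10) and Nfe2l1 (-0.011). The pairs moved to 0.80 for Tfb1m minus Tfb2m, 0.76 for Tfb1m minus Tfam, 0.80 for Gabpa minus Gabpb1 and 0.92 for Gabpa minus Nrf1, and the contrast of machinery and nuclear genes to 0.27. Tefm, near 0, also reversed with quantile normalization (-0.017) and median centring (-0.0024). Without 1 array it ranged over -0.092 to 0.096, Twnk over -0.13 to 0.16 and Lrpprc over -0.014 to 0.17.

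Arrays with the same replicate number shared deviations at r = 0.271, 0.0548, 0.0152 and 0.0391, and only high replicate 1 correlated best with its own number, so the numbers are not taken to pair the samples. With the replicate number as a block Nrf1 (-0.36) had limma adjusted p = 0.0621, and the calls of Tfb1m, Gabpa and Pprc1 remained. The pair tests were not run with 1 array left out. The causes of these changes were not tested.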
